A study of Homo sapiens with 12 samples.

Results

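Alpha-2-macroglobulin (A2M) and 8 genes of the complement system or its control, C1R, C1S, C3, SERPING1, PTX3, CD55, CD59 and CD46, were followed in proliferating (Pro) and senescent (Sen) IMR90 cells. These 9 genes were taken by symbol from the 38716 gene symbols of the deposited tables. A2M was selected on its strong rise in both layers measured here, so its values are a description and carry no test. The other 8 were tested with all other genes, but they and the further lists below were chosen with earlier results of these data known. IMR90 is a primary line of normal human fetal lung fibroblasts. Pro cells were still dividing and Sen cells had been passaged until replicative exhaustion, with no other treatment or genetic change named for either group. From each of 3 lysates per state came a Ribo-seq library, which reads the stretches of mRNA shielded by ribosomes, and an RNA-seq library of poly(A)-enriched RNA, for 12 libraries in all. The labels name a pair of isolates of the line without tying samples to them, so isolate and state cannot be told apart, and the tables of the Pro RNA-seq libraries carry a tag resembling the solvent DMSO that the labels do not explain.

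Complement is a cascade of blood and tissue proteins that marks surfaces for removal and can end in a pore through the target membrane. The C1 complex starts its classical branch through the paired proteases C1r and C1s, C3 is the central component on which all branches converge, and host cells protect themselves with soluble inhibitors and with surface proteins such as CD55, CD46 and CD59. A2M is a large secreted protease trap of the same protein family as C3, and fibroblasts are known to make several of these proteins outside the liver.

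A2M and C3 share an internal thioester, a reactive bond between a cysteine and a glutamine by which C3 attaches to surfaces. The coding stretches below are printed because A2M shares this element with C3. They come from GENCODE version 44 transcripts lifted to GRCh37, run 5′ to 3′ on the coding strand over 30 bases, and have the codons for glycine, cysteine, glycine, glutamate and glutamine in capitals.
A2M: ccctatGGCTGTGGAGAGCAGaatatggtc
C3: ccctcgGGCTGCGGGGAACAGaacatgatc
CD109: ccttatGGCTGTGGTGAACAGaacatgata
The A2M and C3 stretches were identical at 23 of 30 bases and at 12 of the 15 bases of the core. The motif occurred once in A2M (1474 residues) and once in C3 (1663 residues). It was also found once in CD109, a membrane-anchored relative of A2M, and once each in PZP, A2ML1, CPAMD8 and C4A. It was not found in C5, a relative of C3.

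On GRCh37, C1S (chr12:7096351-7178336, plus strand), C1R (chr12:7187513-7245203, minus strand) and A2M (chr12:9220260-9268825, minus strand) lie on the same chromosome. CD55 (chr1:207494864-207560149) and CD46 (chr1:207925382-207968858), both on the plus strand, also share one. C3 is at chr19:6677715-6730573 (minus), SERPING1 at chr11:57364860-57386644 (plus), CD59 at chr11:33724556-33758025 (minus) and PTX3 at chr3:157154639-157161422 (plus). The build of the deposited tables is not given in the sources used here, and these spans are those of the reference annotation. C1R is annotated in separate pieces on GRCh37, so its span and its length are uncertain. The whole of PTX3 lies within VEPH1 on the opposite strand, a lncRNA antisense to A2M (A2M-AS1) overlaps it by 1026 bases, C1S overlaps LPCAT3 and CD46 overlaps MIR29B2CHG, each on the opposite strand. On the same strand, C1R overlaps C1RL by 3021 bases, C3 overlaps GPR108 by 649 bases, and CD59 and C1S overlap further protein-coding annotations without a symbol by 19458 and 9170 bases. GPR108 was assigned 2562 reads over the 6 RNA-seq libraries, while C3 had 102 in Pro and 151 in Sen. The strand rule of the counting is not given, and a strand rule would not separate partners on the same strand, so reads of overlapping genes cannot be told apart with certainty. A2M-AS1 was assigned 15.0 reads over the 6 RNA-seq libraries, MIR29B2CHG 3.0, VEPH1 2096 and LPCAT3 2535.

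The mRNA level of a gene was its reads in the 5′ UTR, coding sequence (CDS) and 3′ UTR of an RNA-seq library, and its ribosome-protected fragments (RPF) were the Ribo-seq reads in its CDS. Both are given in CPM, read counts scaled to a common library size with TMM factors. RNA-seq libraries held from 7902427 to 14144455 such reads. Ribo-seq libraries were uneven, with 54421 CDS reads in Pro 1 and 54708 in Sen 2 against 583798 to 1718521 in the other 4. In Pro 1 and Sen 2, called shallow here, 3 reads were worth 52.1 and 52.7 CPM. Of assigned Ribo-seq reads, 34.4% fell in the CDS in Pro 1 and 15.0% in Sen 2, against 54.7% to 88.8% in the others. The state markers moved as the labels say in both layers, with MKI67, LMNB1 and HMGB2 lower and CDKN1A, CDKN2A and CDKN2B higher in Sen. The 10 fibroblast markers summed to between 29906 and 35425 CPM of mRNA in every library. Some defining markers of other cells had an RNA-seq count of 0 in every library. These were TYROBP and AIF1 of macrophages, TTR and FGB of hepatocytes, CDH5 of endothelium and SFTPC of epithelium. The 8 monocyte and macrophage markers nevertheless summed to 0.61 to 0.74 CPM in Pro and 1.49 to 1.91 in Sen, and the 7 hepatocyte markers to 4.56 to 5.21 and 6.17 to 7.11, mostly TF. The 6 endothelial markers summed to 1.77 to 2.44 CPM in Pro and 1.37 to 2.02 in Sen. The 5 epithelial markers summed to 0.56 to 2.31 and 1.32 to 1.46. The hepatocyte sums were of similar size to the mRNA levels of A2M in Pro (3.17 to 4.65 CPM) and of C3 in both states (2.44 to 5.12 CPM). In RPF the hepatocyte markers summed to 295, 11.9 and 10.7 CPM in Pro 1, 2 and 3. In Sen 1, 2 and 3 they summed to 10.7, 141 and 15.6 CPM, so the shallow libraries were highest. These sums lay above the RPF of A2M in every Pro library and in Sen 2, and below it in Sen 1 and Sen 3. The part of such other cells in the results below was not tested. In these bulk samples, fewer cells expressing a gene and less RNA per cell cannot be told apart.

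Across the 8 tested members, senescent cells held more mRNA of C3, of the C1 inhibitor SERPING1, of PTX3 and of all 3 membrane regulators, and less of the C1 proteases. In the edgeR quasi-likelihood test with Benjamini-Hochberg adjustment over all 12787 genes, 6 of the 8 were called higher and 2 lower at the adjusted p of 0.15 that the study used. Over all genes tested, 36.6% were called higher and 37.0% lower, so being called at all was common. For 7 of the 8 no Pro library overlapped a Sen library, against 67.8% of all genes tested. The median log2 fold change of the 8 was 0.42, beside -0.01 for all genes. As the 8 were chosen with earlier results of these data known, these counts and the median describe them and test nothing about the group.

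**Figure D1:**
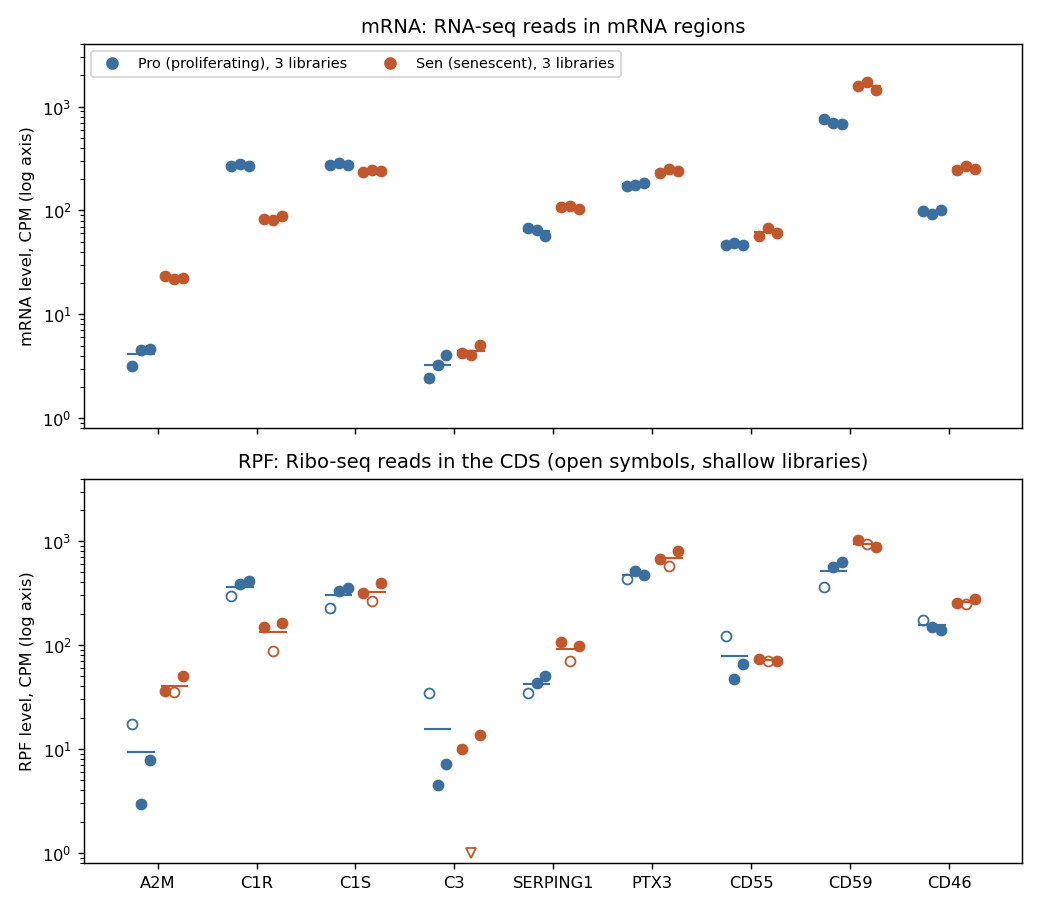
Level of each member in every library, in CPM on a log axis, for mRNA (top) and RPF (bottom); points are libraries, short lines are group means (omitted where a library is at 0), open symbols are the shallow Ribo-seq libraries, and the triangle marks C3 at 0 in Sen 2. A2M mRNA sits between 21.8 and 23.6 CPM in Sen and below 5 CPM in Pro, C1R falls in both panels, and the open symbols of A2M and C3 in RPF rest on 0 to 2 reads each.

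A2M traps proteases of all classes in a cage and can bind them through its thioester. Its mRNA stood at 3.17, 4.53 and 4.65 CPM in Pro 1, 2 and 3 and at 23.6, 21.8 and 22.6 CPM in Sen 1, 2 and 3. All Sen libraries lay well above all Pro libraries and were close to each other. The counts behind these levels were 26, 53 and 50 reads in Pro and 222, 298 and 247 in Sen. The fitted change was a 5.38-fold rise (log2 2.43, SE 0.14), which stood at percentile 98.5 of the genes tested.

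RPF of A2M was higher in Sen as well. The gene had 1, 2 and 13 RPF reads in Pro and 54, 2 and 26 in Sen, which correspond to 17.4, 2.97 and 7.75 CPM and to 36.2, 35.2 and 50.5 CPM. The groups did not overlap, although the highest Pro level and the lowest Sen level both came from the shallow libraries, where they rest on 1 and 2 reads. The fitted rise was 6.0-fold (log2 2.58, SE 0.39). It ranged from 2.28 to 3.23 on the log2 scale over 14 alternatives, the highest being without lysate Pro 3, which holds 13 of the 16 Pro reads. Nearly all A2M reads were in the CDS, 98.4% of its mRNA reads in Pro and 98.3% in Sen, and none of the 12 libraries had a read in its 3′ UTR, which is 115 bases long in the reference transcript.

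The change in translational efficiency (TE), the RPF change beyond the mRNA change fitted over all 12 libraries, was 0.30 on the log2 scale for A2M with a 95% interval from -0.65 to 1.25. That interval spans a decrease as well as an increase, and the value turned to -0.27 with limma voom and to -0.04 without lysate Pro 2. A2M therefore showed no TE change that its read numbers could resolve.

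C1R and C1S encode the proteases that are paired in the C1 complex, and their levels parted. C1R mRNA was 269, 280 and 267 CPM in Pro and 83.3, 81.3 and 89.3 CPM in Sen. The states were far apart compared with the spread within either, a 3.22-fold drop (log2 -1.69, SE 0.07, edgeR adjusted p = 9.54e-15). C1S mRNA was 275, 287 and 273 CPM in Pro and 234, 244 and 242 CPM in Sen. The groups did not overlap here either, but the difference was only 1.16-fold (log2 -0.21, SE 0.07, edgeR adjusted p = 0.0084). The direction of C1S was lower under all 16 alternatives tried.

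In the RPF layer, C1R stood at 295, 383 and 416 CPM in Pro and 150, 87.9 and 161 CPM in Sen, a 2.60-fold drop (log2 -1.38, SE 0.17, edgeR adjusted p = 1.77e-10). C1S had 226, 329 and 353 CPM in Pro and 318, 264 and 397 CPM in Sen. The C1S groups overlapped, and its log2 change of 0.05 had a 95% interval from -0.27 to 0.36 and an edgeR adjusted p of 0.84. The interval still includes the small drop measured in mRNA. Neither gene was called in TE, with log2 changes of 0.30 (95% interval -0.06 to 0.65) for C1R and 0.27 (-0.06 to 0.60) for C1S.

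Set against each other within a library, where depth and scaling cancel, the CDS reads of C1R per read of C1S were 1.08, 1.11 and 1.11 in Pro and 0.403, 0.370 and 0.413 in Sen for mRNA. For RPF the same ratio was 1.31, 1.16 and 1.18 in Pro and 0.474, 0.333 and 0.407 in Sen. Both layers thus went from slightly over 1 read of C1R per read of C1S to well under 1, in every library. With 3 libraries against 3, the two-sided exact permutation test gave p = 0.1, the smallest value this design allows, in each layer. The same p was found for all 10 ratios computed among the tested members and stays 0.1 after Benjamini-Hochberg adjustment over them. As these members were chosen with earlier results known, the shared p describes them and is no independent support.

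SERPING1 encodes the C1 inhibitor, the serpin that inactivates C1r and C1s, and it rose. Its mRNA was 67.1, 65.3 and 57.1 CPM in Pro and 108, 110 and 104 CPM in Sen, with no overlap and a 1.70-fold rise (log2 0.77, SE 0.08, edgeR adjusted p = 1.37e-08). Its RPF level was 34.7, 43.0 and 50.1 CPM in Pro and 107, 70.3 and 97.2 CPM in Sen, a 2.15-fold rise (log2 1.10, SE 0.21, edgeR adjusted p = 1.34e-05). The shallow libraries contributed 2 reads in Pro 1 and 4 in Sen 2, and the deeper ones 29 and 84 in Pro and 159 and 50 in Sen. SERPING1 was not called in TE (log2 0.28, 95% interval -0.17 to 0.73).

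The ratios of the proteases to their inhibitor moved with this. CDS reads of C1R per read of SERPING1 averaged 4.36 ± 0.42 in Pro and 0.79 ± 0.06 in Sen for mRNA, and 8.58 ± 0.31 and 1.44 ± 0.21 for RPF (SD, n = 3 each, exact two-sided permutation p = 0.1, the smallest possible). For C1S per SERPING1 they were 3.95 ± 0.33 and 2.0 ± 0.07 for mRNA and 7.07 ± 0.58 and 3.60 ± 0.56 for RPF (SD, n = 3 each, same exact permutation p = 0.1). These are ratios of reads, not of molecules, since the CDS of the genes differ in length. The change between the states is not affected by length. C1R was lower and SERPING1 higher in Sen without overlap in both layers. The p of their ratio was thus fixed by values given above and is no further test. The same holds for C1S per SERPING1 in mRNA.

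**Figure D2:**
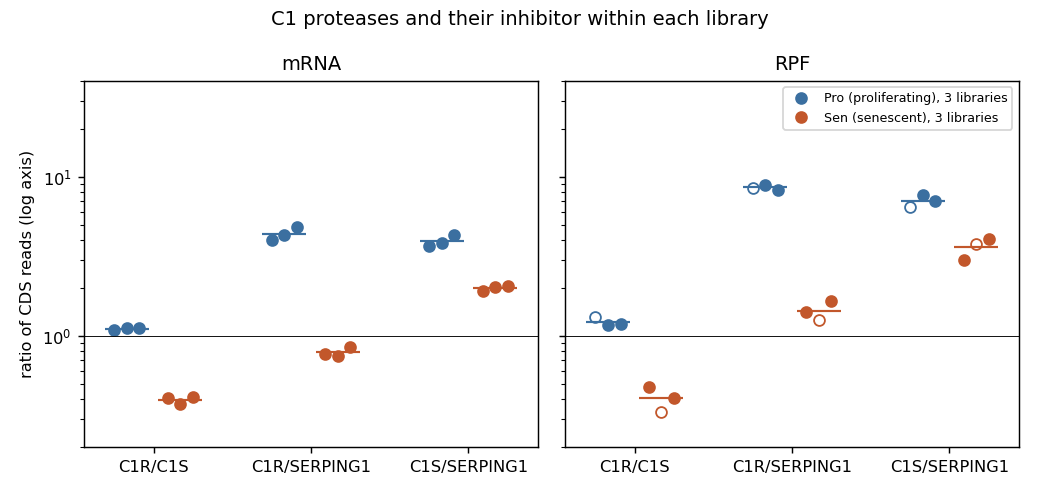
Ratio of CDS reads of C1R to C1S, C1R to SERPING1 and C1S to SERPING1 in each library, for mRNA (left) and RPF (right) on a log axis; points are libraries, lines are means and open symbols are the shallow Ribo-seq libraries. In all 6 columns every Sen library lies below every Pro library, and the C1R to SERPING1 ratio of mRNA drops from above 1 to below 1.

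C3, whose cleavage opens the common part of the cascade, was scarce. Its mRNA was 2.44, 3.25 and 4.10 CPM in Pro and 4.26, 4.03 and 5.12 CPM in Sen, from 20 to 56 reads a library. The groups overlapped, with Sen 2 just below Pro 3. It was called higher (1.34-fold, log2 0.42, SE 0.20, edgeR adjusted p = 0.067), but the call was lost in 7 of 16 alternatives, among them the omission of lysate Pro 1 (adjusted p = 0.249), Pro 2 (0.151) or Sen 3 (0.233). In Ribo-seq it had 2, 3 and 12 CDS reads in Pro and 15, 0 and 7 in Sen and did not pass the filter on low counts. No RPF change of C3 was therefore tested. As with A2M, no library held a read in its 3′ UTR, which is 178 bases long in the reference transcript.

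PTX3 is a secreted pattern-recognition protein, the long pentraxin, that binds C1q and factor H. Its mRNA was 172, 176 and 186 CPM in Pro and 229, 249 and 239 CPM in Sen, with all Sen libraries higher (1.34-fold, log2 0.43, SE 0.07, edgeR adjusted p = 1.39e-05). Its RPF level was 434, 513 and 472 CPM in Pro and 667.3, 580 and 807 CPM in Sen, again without overlap (1.46-fold, log2 0.55, SE 0.16, edgeR adjusted p = 0.0043). Without lysate Sen 3 the RPF rise was 0.41 with an adjusted p of 0.154, just outside the threshold. The TE change was 0.16 (95% interval -0.15 to 0.47) and was not called.

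The membrane regulators rose together in mRNA. CD46, the cofactor for cleavage of C3b and C4b, had 98.9, 93.2 and 101 CPM in Pro and 243, 269 and 249 CPM in Sen, a 2.59-fold rise (log2 1.38, SE 0.07, edgeR adjusted p = 3.75e-13). CD59, which blocks assembly of the membrane pore, had 750, 688 and 680 CPM in Pro and 1590, 1710 and 1438 CPM in Sen, a 2.24-fold rise (log2 1.16, SE 0.08, edgeR adjusted p = 2.49e-11). CD55, which speeds the decay of the C3 and C5 convertases, had 46.3, 48.9 and 46.2 CPM in Pro and 57.4, 67.3 and 60.6 CPM in Sen. Its rise was the smallest of the 3 at 1.31-fold (log2 0.39, SE 0.08, edgeR adjusted p = 0.00021), and none of the 3 had groups that overlapped.

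In RPF, CD46 and CD59 rose and CD55 was not called. CD46 rose from 174, 150 and 140 CPM in Pro to 257, 246 and 280 CPM in Sen (1.82-fold, log2 0.86, SE 0.17, edgeR adjusted p = 1.63e-05). CD59 rose from 364, 564 and 637 CPM to 1024, 932 and 877 CPM (1.66-fold, log2 0.74, SE 0.17, edgeR adjusted p = 2.03e-04). CD55 stood at 121, 47.5 and 66.2 CPM in Pro and 73.7, 70.3 and 70.0 CPM in Sen. The highest CD55 level was that of the shallow library Pro 1, from 7 reads, and the groups overlapped. Its log2 change of 0.23 (95% interval -0.20 to 0.66, edgeR adjusted p = 0.42) leaves room for a rise as large as that in mRNA.

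Of the 7 tested members with enough RPF reads, 4 were called higher and 1 lower, where 27.5% and 26.9% of all 7521 genes tested were. The groups did not overlap for 5 of the 7, against 32.5% of all genes. Their median RPF log2 fold change was 0.55, beside -0.003 for all genes. As for mRNA, these counts and the median describe members chosen with earlier results known and are no test of the group. The typical SE was 0.26 for RPF and 0.10 for mRNA over all genes. All 7 members had a smaller RPF SE, from 0.16 (C1S) to 0.22 (CD55). Calls and groups without overlap are easier to reach for genes measured this tightly, so the shares of all genes are no matched background.

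**Figure D3:**
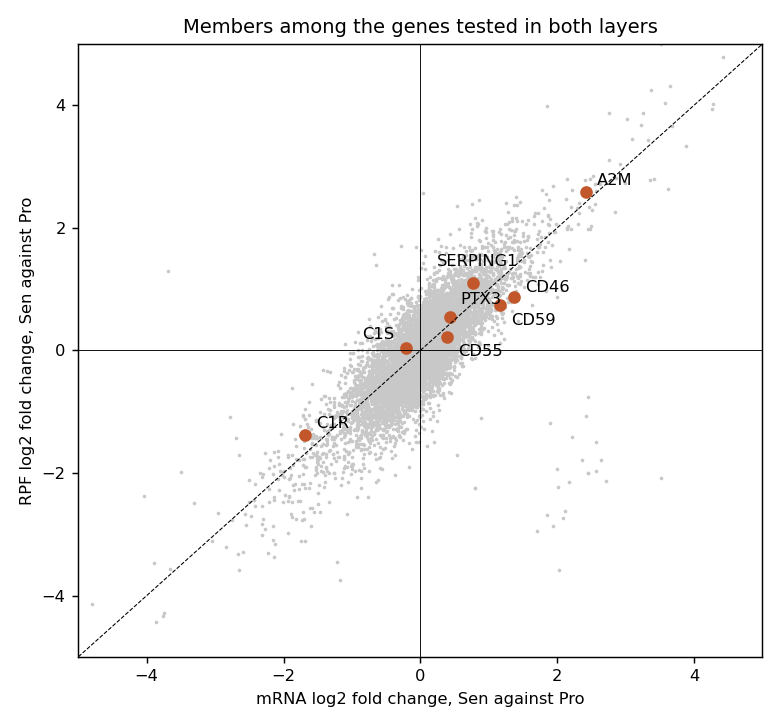
RPF against mRNA log2 fold change, Sen against Pro, for the 7473 genes tested in both layers (grey; 10 genes lie outside the axes) with the members in orange and the line of equal change dashed; C3 was not tested in RPF. A2M lies at 2.43 and 2.58 near the upper end, C1R at -1.69 and -1.38 is the only member low on both axes, and CD46 and CD59 lie below the dashed line.

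In TE, CD46 was the only one of 7 tested members called, and it was lower in Sen by 0.47 on the log2 scale (log2 -0.47, SE 0.18, edgeR adjusted p = 0.129). Of all 7473 genes tested, 4.88% were called higher and 4.48% lower. Per lysate, the log2 of RPF over mRNA (0.5 added to every count) was 0.88, 0.69 and 0.46 in Pro lysates and 0.08, -0.08 and 0.18 in Sen lysates. CD46 thus had fewer RPF reads per mRNA read in all 3 Sen lysates, while its mRNA and its RPF both rose. Its groups did not overlap, and neither did those of 16.2% of all genes. The call was lost in 9 of 16 alternatives, including DESeq2, voom and the omission of any 1 lysate other than Pro 1, with the log2 value between -0.61 and -0.43 throughout.

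CD59 had a TE change of similar size (log2 -0.42, 95% interval -0.78 to -0.06, edgeR adjusted p = 0.199) that was not called here and was called in 6 of 16 alternatives. Its RPF to mRNA values were -1.01, -0.28 and -0.10 in Pro and -0.63, -0.86 and -0.71 in Sen, so the shallow library Pro 1 lay below all others. Without lysates Pro 1 and Sen 2, the log2 TE change was -0.49 with an adjusted p of 0.031. CD55 gave -0.09 (95% interval -0.56 to 0.37).

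**Figure D4:**
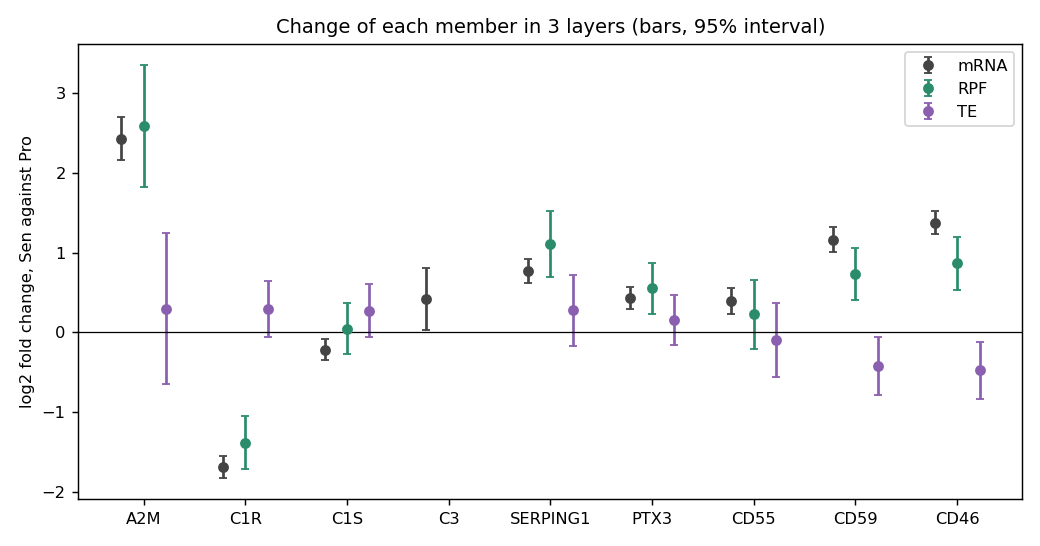
Log2 fold change of each member, Sen against Pro, in mRNA, RPF and TE; points are fitted values and bars are 95% intervals; C3 has no RPF or TE value. The mRNA and RPF points of each member lie on the same side of 0 except for C1S, and the TE intervals of CD46 and CD59 lie below 0 before adjustment for the number of genes tested.

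Where the reads of a member fell differed strongly between genes. CD59, whose reference transcript carries a 3′ UTR of 7116 bases, had 57.1% of its mRNA reads there in Pro and 61.5% in Sen. CD46 had 43.2% in both states, and SERPING1, C1R, A2M and C3 had under 5%. Ribo-seq reads pooled over the libraries of a state lay to at least 94.1% in the CDS for every member. Single libraries went lower, to 71.6% for CD59 and 82.9% for CD46 in the shallow library Sen 2, 87.5% for CD59 in Pro 1, and 66.7% for A2M in Pro 2, which had 3 reads. When mRNA was counted from CDS reads alone, the TE change of CD46 was -0.54 (edgeR adjusted p = 0.086) and that of CD59 -0.36 (adjusted p = 0.257).

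Ribo-seq reads in the 3′ UTR of CD59 numbered 2, 3 and 9 in Pro and 50, 20 and 20 in Sen. They made up 0.94% of its Ribo-seq reads in Pro and 4.19% in Sen. Over all genes the 3′ UTR share of Ribo-seq reads in mRNA regions was 12.4%, 1.94% and 1.40% in Pro and 3.51%, 14.8% and 4.90% in Sen, so it was also higher in the Sen libraries among the deeper ones. Its part in the CD59 value was not tested.

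In CPM of CDS reads per kilobase of CDS, a scale on which genes can be compared, CD59 was the most abundant member mRNA in both states (537 ± 61 in Pro and 1133 ± 107 in Sen, SD, n = 3). In Pro it was followed by C1R (128 ± 4), PTX3 (117 ± 4), C1S (110 ± 4), CD46 (40.9 ± 3.6), SERPING1 (35.4 ± 3.9), CD55 (27.7 ± 1.9), A2M (0.91 ± 0.17) and C3 (0.62 ± 0.16). The libraries of PTX3 and C1S overlapped in this order, as did those of CD46 and SERPING1 and those of A2M and C3. The value of C1R depends on its uncertain reference length.

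In Sen the order of mRNA per kilobase was CD59, PTX3 (164 ± 5), CD46 (106 ± 4), C1S (95.2 ± 3.1), SERPING1 (60.4 ± 1.3), C1R (39.6 ± 1.9), CD55 (35.1 ± 2.6), A2M (5.04 ± 0.22) and C3 (0.87 ± 0.10). No neighbours overlapped, though C1R and CD55 came within 0.1 of each other at their nearest libraries. At the reference length used, C1R thus went from the second place to the sixth. As that length is uncertain, so are its order and its lack of overlap beside PTX3 in Pro and CD55 in Sen. A2M stayed in the eighth place, with a level per kilobase below that of every member but C3 despite its rise.

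RPF per kilobase gave a similar order in Sen, led by CD59 (2439 ± 192), PTX3 (598 ± 100), CD46 (220 ± 12) and C1S (158 ± 32), followed by C1R (67.9 ± 20.2), SERPING1 (56.0 ± 11.5) and CD55 (53.5 ± 1.7), whose libraries overlapped. A2M reached 9.13 ± 1.80, against 2.12 ± 1.66 in Pro. As RPF reads per CDS read of RNA-seq, a denominator without the UTRs and so another scale than that of TE above, PTX3, CD46 and CD59 stood at percentiles 94.4, 90.3 and 89.9 of the genes tested in both layers in the deeper libraries of Pro, and SERPING1 at 12.2. In Sen these percentiles were 96.2, 69.7, 74.0 and 20.02. The log2 value of CD59 in Pro 2 was 0.83 on this scale and -0.28 with all mRNA reads, so its percentile holds for this scale alone.

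The rest of the complement system was covered by a list of 54 further genes, of which 18 had enough mRNA reads to be tested. Of these, 5 were called higher and 8 lower, beside 36.6% and 37.0% of all genes, and their median log2 fold change was -0.27. In RPF 7 were tested, of which 2 were called higher and 3 lower, beside 27.5% and 26.9% of all genes. The 5 RPF calls became 3 without lysate Pro 3, 1 without Sen 1 and 10 with a filter of at least 1 read. The RNA-seq count was 0 in every library for 18 of the 54. Among them were C1QA, C1QB and C1QC, the chains of the C1q recognition unit that C1r and C1s bind. These are counts after rounding, and genes without CDS reads in any library were set to 0 whatever their UTR reads. A count of 0 still allows up to 3 reads, 0.366 CPM in the shallowest RNA-seq library. C4A had a count of 2 in all and C4B of 0, and as near-identical copies their counts are uncertain.

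Among initiators, MASP1, a protease of the lectin branch, rose from 118, 124 and 112 CPM of mRNA to 185, 182 and 181 CPM (log2 0.63, SE 0.07) and also in RPF (log2 0.85, SE 0.17). COLEC10, a collectin of the same branch, rose from 9.76, 8.81 and 9.40 CPM to 19.7, 23.7 and 21.4 CPM of mRNA (log2 1.23, SE 0.12). C1RL, a relative of C1R whose annotated span overlaps it on the same strand, fell from 18.7, 21.8 and 21.7 CPM to 11.2, 12.3 and 14.1 CPM (log2 -0.73, SE 0.11). Its RPF, from 1, 14 and 18 reads in Pro and 28, 0 and 10 in Sen, was not called (log2 0.39, SE 0.39). Mean RPF went the other way, from 16.3 CPM in Pro to 12.7 in Sen. Its TE was called higher (log2 1.22, SE 0.42, edgeR adjusted p = 0.090) with groups that overlapped. No alternative setting was examined for this TE call. C1RL thus fell with C1R in mRNA, while its few RPF reads gave no call in either direction. Reads of these overlapping genes cannot be told apart with certainty. All 3 genes named here passed the edgeR threshold for mRNA. Of the 16 genes in this list 5 were tested in mRNA. Of these, 2 were called higher and 2 lower, beside 36.6% and 37.0% of all genes. The other gene called lower, also a collectin, had a mean under 100 reads and is not named.

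C7, which joins the nascent membrane pore, rose from 4.03, 4.70 and 6.14 CPM of mRNA in Pro to 25.5, 26.2 and 25.6 CPM in Sen (log2 2.36, SE 0.13, edgeR adjusted p = 8.82e-13). That change stands beside 2.43 for A2M. C7 had too few RPF reads to be tested. In the terminal list of 7 genes C7 was 1 of 2 tested, the other being called lower. C1QBP, a mitochondrial protein that can bind C1q, fell in mRNA (log2 -0.50, SE 0.08) and RPF (log2 -0.63, SE 0.18).

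Relatives and receptors of A2M were few. LRP1, the receptor that clears A2M bound to proteases, rose from 373, 514 and 591 CPM of mRNA in Pro to 791, 630 and 861 CPM in Sen (log2 0.62, SE 0.12, edgeR adjusted p = 1.16e-04). Its RPF rose by the same amount (log2 0.63, SE 0.17, edgeR adjusted p = 0.0017). LRPAP1, its chaperone, rose in mRNA (log2 0.89, SE 0.07) and RPF (log2 1.32, SE 0.17), and CD109 fell in both (log2 -0.50, SE 0.12, and -1.02, SE 0.34). In that list of 6 genes, 3 of 4 tested were called higher in mRNA and 1 lower, where 36.6% and 37.0% of all genes were.

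The mRNA patterns most like that of A2M over the 6 RNA-seq libraries, by root mean square distance of centred log2 CPM among 7472 other genes tested in both layers, were those of HIST1H2BC (distance 0.064), H2BFS (0.085) and DSP (0.089). HIST1H2BC and H2BFS are histone H2B genes of a multigene family, so their counts are uncertain. Their RPF went the other way (log2 -1.98 and -1.78), whereas that of DSP, which encodes desmoplakin, rose (log2 2.30) as did that of A2M. No other member was near A2M, the nearest being CD46 at rank 167. For C1R the nearest were PTMA (0.051), TK1 (0.056) and CBS (0.064), each lower in both layers.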

How the data were processed

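Ribo-seq and poly(A) RNA-seq of IMR90 gave 12 libraries in 4 groups of 3, grouped by their labels. The deposited values are expected counts, which the authors obtained by assigning reads to the 5′ UTR, CDS and 3′ UTR of each gene symbol without scaling to depth. The submitters' processing notes name cutadapt 1.18, Bowtie 1.0.1, SAMtools 1.8 and DESeq2 1.22.2. The genome build, annotation, strand rule and treatment of reads with several placements are not given in the sources used here. Most values were whole and the rest simple fractions, so region sums were rounded to whole numbers.

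Genes with a CDS value above 0 in some library entered edgeR 4.0.16 in R 4.3.3 (glmQLFit and glmQLFTest, two-sided). This followed filterByExpr and TMM scaling, and the threshold was a Benjamini-Hochberg adjusted p of 0.15. A listed gene without such a CDS value was given a count of 0, whatever its UTR reads. TE was the interaction of library type and state over all 12 libraries, with the lysate as a block, since the labels say that RNA was taken from each lysate. Deviations from the state mean hardly correlated between the RNA-seq and Ribo-seq library of a lysate (r from -0.046 to 0.059). Without the block, 1342 genes were called in TE against 700 with it, and the edgeR adjusted p of CD46 was 0.041. The SE is the absolute log2 fold change divided by the square root of the quasi-likelihood F statistic. For A2M it is a description only. Intervals are 1.96 SE to either side, a normal quantile that can make them too narrow with few libraries. DESeq2 1.42.0, limma voom 3.58.1, other scalings, filters and omission of lysates were tried. Scripts were tested on simulated data. The authors' own tool for translation, anota2seq, was not used here.

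The members and lists were chosen with earlier results of these data known. Named from each list were genes that passed the mRNA threshold with a mean of at least 100 reads over the RNA-seq libraries, at most 4 a list by size of change, plus defining genes at 0. The 3 nearest mRNA patterns were taken for A2M and C1R, and those of C3 are not reported here. C4A and C4B were added after their values were seen. RNA-seq held 7902427 to 14144455 reads in mRNA regions and Ribo-seq 54421 to 1718521 in the CDS. Floors of 3 reads cover counting error only. Lysates were grown as independent replicates per the labels, and p-values measure the spread between them. No 2 libraries agreed within sampling noise.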

Additional observations from a re-analysis of the deposited data

Results flagged for a closer look

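Ribo-seq reads in the 3′ UTR, which entered no comparison of RPF, were looked at for each member. For CD46 they numbered 0, 0 and 0 in Pro and 5, 3 and 2 in Sen, 10 in all, so that every Sen library lay above every Pro library. The total is small. Over all genes, the 3′ UTR share of Ribo-seq reads in mRNA regions was also higher in Sen 1 and Sen 3 than in Pro 2 and Pro 3. It was higher in Sen 2 (14.8%) than in Pro 1 (12.4%) as well. As a share of all assigned Ribo-seq reads, Sen 2 (5.45%) was not above Pro 1 (5.48%). The part of these shares in the CD46 value was not tested.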

How the results depend on the processing

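All 8 tested members kept their mRNA direction under the 16 alternatives tried, and only C3 lost its call. Of the RPF calls, 5 in the test reported, 3 were made with at least 10 reads in every library, a filter that left 4 of these members. TE calls, 1 in the test reported, were 2 with RLE factors, with library totals, with at least 10 reads in every library, without lysates Pro 1 and Sen 2, or with no replicate block for the lysate, and 0 with DESeq2, voom, at least 1 read or an adjusted p of 0.05. They ranged from 0 to 2 when 1 lysate was left out, with 2 without Pro 1 and 0 without any other. RPF calls in the complement list, 5 in the test reported, were 2 with DESeq2, 10 with at least 1 read, 1 with at least 10 reads in every library and 3 with the replicate number as a block, and ranged from 1 to 7 when 1 lysate was left out, with 3 without Pro 3 and 1 without Sen 1. Directions reversed for A2M in TE (-0.27 with voom, -0.035 without Pro 2, and -0.035 to 0.90 over the omission of single lysates), C1S in RPF (-0.10 with library totals, -0.094 with at least 10 reads, -0.055 without Pro 1, -0.092 without Sen 3, and -0.092 to 0.17 over single lysates), CD55 in RPF (-0.029 with the replicate block) and CD55 in TE (0.13 without Pro 3, and -0.31 to 0.13 over single lysates), none of them called. The cause was not tested. Library totals shifted the median log2 change of all genes to -0.11 for mRNA and -0.14 for RPF. Deviations of same-numbered libraries correlated across states at 0.03, -0.10 and 0.12 for mRNA and 0.03, 0.03 and 0.01 for RPF. Libraries with different numbers reached 0.14 and -0.17 for mRNA. The RNA-seq and Ribo-seq library of a lysate, a pair by design, hardly correlated either. Whether the replicate numbers pair the samples across states therefore cannot be told from these values. With the block, calls of the complement list in mRNA went from 13 to 12, and the members' calls were as many as without it. The shallow Ribo-seq libraries limit the RPF of A2M, C3, SERPING1 and CD55.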

Other observations

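The pentraxins other than PTX3 and the IL-6 family, which drives acute-phase genes in liver, were described in the same mRNA test. NPTX1, a neuronal pentraxin, fell from 132, 115 and 113 CPM in Pro to 24.4, 20.7 and 25.2 CPM in Sen (log2 -2.36, SE 0.09, edgeR adjusted p = 1.81e-15), and NPTXR, the neuronal pentraxin receptor, rose (log2 0.76, SE 0.12, edgeR adjusted p = 7.44e-06). CRP and APCS, the short pentraxins, had an RNA-seq count of 0 in every library. Of 22 genes of IL-6 signalling and the acute phase, 11 were tested, of which 3 were called higher and 7 lower, beside 36.6% and 37.0% of all genes. LIF fell from 110, 109 and 103 CPM to 34.9, 29.2 and 35.5 CPM (log2 -1.70, SE 0.08), IL6 from 16.1, 15.6 and 17.1 CPM to 5.96, 7.33 and 6.49 CPM (log2 -1.29, SE 0.13), and SOCS3, a feedback inhibitor of this pathway, by 0.81 on the log2 scale (SE 0.09). IL6R, the receptor of IL-6, fell by 0.79 (SE 0.13), and all 4 passed the edgeR threshold. HP, FGA, FGB and FGG, acute-phase genes of hepatocytes, had an RNA-seq count of 0 in every library.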
